A study of Homo sapiens with 8 samples.

Results

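Zinc finger genes with a ZNF number and a location outside chromosome 19 carried 531 of the 22626 m6A peaks in the deposited list, on 203 of 12009 genes. Members were taken by symbol (ZNF, a number and at most 1 letter) and by the chromosome in the table, so the rule itself uses no measured value, although it was set with earlier results of these data known. The cells were HCT116, a human colorectal cancer line. One arm was labelled ALKBH5 knockdown and had a stable hairpin (shALKBH5, hairpin sh_AL1), and the other had a control hairpin (shNC) and was labelled WT. ALKBH5 is a demethylase that takes N6-methyladenosine (m6A) off RNA. Fragments pulled down with an anti-m6A antibody (IP) and unselected fragments (input) were sequenced from both arms, which gave 8 libraries in 4 groups of 2. A single ALKBH5 hairpin was used, and no label says that the libraries of a group came from separate cultures.

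Zinc finger proteins of this kind are mostly transcription factors that read DNA with tandem fingers, and their genes usually hold the whole finger array in 1 long last exon. Many also carry a KRAB domain, which recruits the corepressor TRIM28 to silence transposons and imprinted loci, or a SCAN domain, through which they pair with each other. A minority bearing the same symbol act on RNA or ribosomes instead. The m6A mark is placed on mRNA by the METTL3 complex, mainly in long exons and near stop codons, and it can hasten decay of the transcript.

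The values are the authors' own: the p and the enrichment of IP over input for each peak, and a log2 fold between the arms with a p and a false discovery rate (FDR) of its own. No value has a replicate error here, and library depth is unknown. The arm on top of the log2 fold was not given in the sources used here. Positive folds may therefore mean a higher value in either arm, and no direction is drawn from the sign. A correction of the fold for transcript level was not mentioned either, so m6A and RNA abundance cannot be told apart. Of 11 markers of colorectal epithelium 6 had a peak (EPCAM, CDH1, KRT8, KRT18, KRT19 and CDX2), against 1 of 5 fibroblast markers (COL1A1), 1 of 5 leukocyte markers (CD68) and 0 of 3 endothelial ones. KRT20, CDX1, VIL1, CEACAM5 and LGR5 had none, which says nothing of their transcript level.

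Some member peaks began at the very start of the gene, and 2 such places are shown because the peak's edge falls on the RefSeq start site. The first lies between ZNF668 and ZNF646, neighbours on chromosome 16 that are read in opposite directions from start sites 182 bases apart (chr16:31074221-31074441, plus strand, RefSeq on GRCh38.p14). That distance holds for the ZNF646 start site at 31074422, while the RefSeq gene as a whole begins further upstream, at 31072687. The second is the start of ZNF622 on chromosome 5 (chr5:16465781-16465930, minus strand). Capitals mark the bases inside the m6A peak of ZNF668, at the left end of the first stretch, and of ZNF622, at the right end of the second.
ZNF668 and ZNF646: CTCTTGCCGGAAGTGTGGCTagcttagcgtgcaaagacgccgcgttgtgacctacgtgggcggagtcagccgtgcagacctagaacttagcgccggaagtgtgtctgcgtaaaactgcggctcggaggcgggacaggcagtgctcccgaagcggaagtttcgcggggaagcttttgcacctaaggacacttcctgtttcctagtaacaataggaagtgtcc
ZNF622: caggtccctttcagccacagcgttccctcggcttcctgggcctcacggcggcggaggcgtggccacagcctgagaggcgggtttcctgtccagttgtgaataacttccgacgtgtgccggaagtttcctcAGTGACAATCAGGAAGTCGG

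The ZNF668 peak at this start had an enrichment of 24.2-fold in the authors' deposited table, with a log2 fold of 2.36 (FDR 0.42). ZNF646, across the same stretch, had a 5′ peak from position 31074452, beyond the bases shown, with an enrichment of 7.31-fold and a log2 fold of -0.91 (FDR 0.66) per the authors' deposited table. Neither peak was called, so the opposite signs of this head-to-head pair are values only. The ZNF622 peak at its start was one of the stronger member peaks, with a log10 peak p of -102 and a log2 fold of 0.35 (FDR 0.34) per the authors' deposited table. The letters CCGGAAG occurred 2 times in the first stretch and 1 time in the second. This motif was chosen after these stretches were seen. On either strand it was found in 66 (41.2%) of the 160 members with a RefSeq window (300 bases, 250 of them before the start), with 1 window per gene, against 14.2% of the 15843 protein-coding genes in the RefSeq table. All members had an m6A peak, while those protein-coding genes were not limited to genes with a peak. GGAC, the core of the usual m6A sequence, stood on the transcribed strand within 50 bases of the start in 38 of 223 member windows (17.0%), against 18.9% of all 35116.

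Transcripts of these genes carried several peaks more often than 1. Of the 203 genes, 58 (28.6%) had 1 peak, 55 had 2, 67 had 3 or 4, and 23 (11.3%) had at least 5. Among all genes with a peak 51.6% had 1 and 4.45% had at least 5. The most were listed for ZNF292 with 10, ZNF516 with 9, ZNF462 with 8, and ZNF318, ZNF469 and ZNF646 with 7 each. ZNF516 is a zinc finger gene whose mouse counterpart drives brown fat gene expression, ZNF462 a chromatin factor mutated in a developmental disorder, and ZNF469 a gene mutated in brittle cornea syndrome. Of the member peaks 14 overlapped another listed peak of the same gene, among them all 6 of ZNF623, which are 3 pairs at nearly the same coordinates.

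Member peaks had a higher median enrichment than the whole table. Their median enrichment in the authors' deposited table was 13.5-fold (quartiles 9.56 and 20.8), against 10.1-fold (4.96 and 16.3) for all peaks. Zinc finger genes on chromosome 19 stood at 15.8-fold (11.1 and 23.1). The most enriched member peaks in the authors' deposited table were on ZNF275 (70.3-fold), ZNF286A (69.8-fold), ZNF638 (66.4-fold), and ZNF821 and ZNF778 (56.8-fold each). Peak strength ordered the genes differently. The log10 peak p in the authors' deposited table was -631 for ZNF593, -418 for ZNF207, a spindle assembly factor that loads BUB3 onto kinetochores, and -178 for ZNF639. It was -144 for ZNF768 and -133 for ZNF330, a nucleolar protein, in the authors' deposited table. The median log10 peak p was -6.64 for member peaks and -8.2 for all peaks, so the member peaks were more enriched at the median and had a weaker p. No test of these differences was made.

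**Figure D1:**
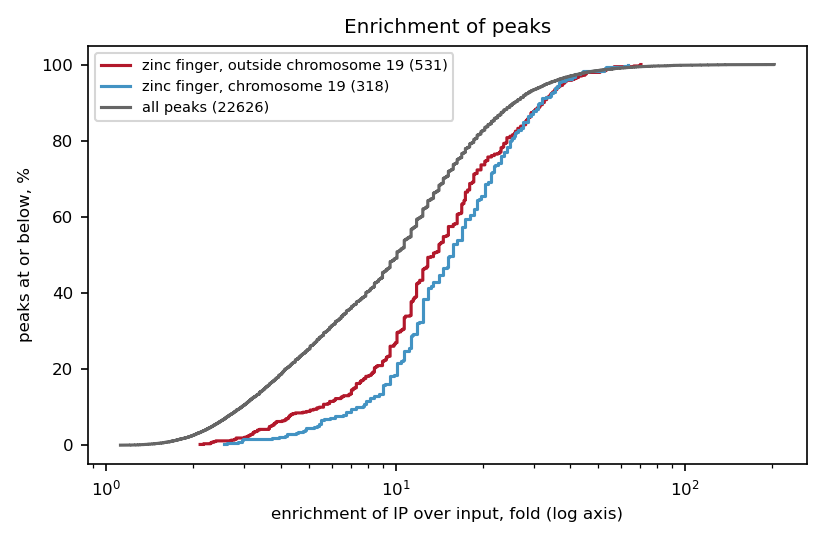
Cumulative share of peaks (y axis, %) by enrichment of IP over input (x axis, fold, log scale) for zinc finger genes outside chromosome 19, zinc finger genes on chromosome 19 and all peaks. The medians are 13.5-fold, 15.8-fold and 10.1-fold, and the curve of all peaks lies to the left of both zinc finger curves over most of the range.

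Most member peaks lay within 1 exon block. Their median exonic length was 330 bases, against 300 for all peaks, and 52 (9.79%) were longer than 1000 bases, against 4.70% of all peaks. Of the 531 peaks 93 spanned more than 1 exon block (17.5%, exact binomial 95% interval 14.4 to 21.02), against 30.4% of all peaks and 8.49% of those on chromosome 19 zinc finger genes. Of 521 member peaks whose middle base lay within the RefSeq gene, 78 (14.97%, exact binomial 95% interval 12.02 to 18.3) were within 1000 bases of its annotated 3′ end. Of the 20400 such peaks in the whole table, 22.1% were. The median distance to that end was 3906 bases for the member peaks so placed and 3614 bases for all peaks so placed, introns included. These intervals cover counting error only, and peaks of 1 gene are not independent.

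Few member peaks differed between the arms in the authors' comparison. At an FDR of 0.05, 19 of 531 peaks on 17 genes were called (3.58%), where 8.23% of all peaks were. Of these 9 had a positive fold, where 5.74% of all peaks were called positive, and 10 had a negative fold, where 2.49% were called negative. The split of called member peaks was thus 9 to 10, and that of all called peaks 1298 to 564. Over all 531 member peaks, called or not, 260 folds were positive, 260 negative and 11 exactly 0, with a median log2 fold of 0.0 (quartiles -0.77 and 0.79), against 0.14 (-0.52 and 0.79) for all peaks. Zinc finger genes on chromosome 19 had 4 of 318 peaks called (3 positive, 1 negative) and a median log2 fold of 0.10. If the deposited p was one-sided and is doubled for it, 9 member peaks were called (5 positive, 4 negative), where 6.36% of all peaks were called (4.57% positive, 1.78% negative). At an FDR of 0.01, 6 member peaks were called, where 4.99% of all peaks were.

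Peak strength moved with the calls. By the authors' deposited table, member peaks with a log10 peak p above -5 made up 37.9% of the members and 32.1% of all peaks. Of these 201 peaks 0 were called (exact binomial 95% interval 0 to 1.82), against 1.28% of all peaks as weak. Between -5 and -20, 10 of 245 member peaks were called (4.08%, exact binomial 95% interval 1.97 to 7.38), against 5.71% of all peaks in that range. At -20 or lower, 9 of 85 member peaks were called (10.6%, exact binomial 95% interval 4.96 to 19.2), against 18.8% of all peaks that strong. Each of these member intervals contains the share of all peaks, so no single class told the called shares apart by counting error. The member share was nevertheless the lower in every class, and the classes were not tested together. For all 531 members the exact binomial 95% interval, 2.17 to 5.53, does not contain the 8.23% of all peaks. Peaks of 1 gene are not independent, which these intervals leave out. The strongest class held 16.01% of members and 30.0% of all peaks. Folds were larger in size among weak peaks. The median absolute log2 fold was 0.91, 0.74 and 0.51 in the member classes from weakest to strongest. Over all peaks it was 0.85, 0.74 and 0.46. Among members of any strength, 204 (38.4%) had a log2 fold of at least 1 in size, of which 17 were called (8.33%). Of all peaks 33.4% had a fold that large, and 13.99% of those were called. The part of read depth in this was not tested.

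**Figure D2:**
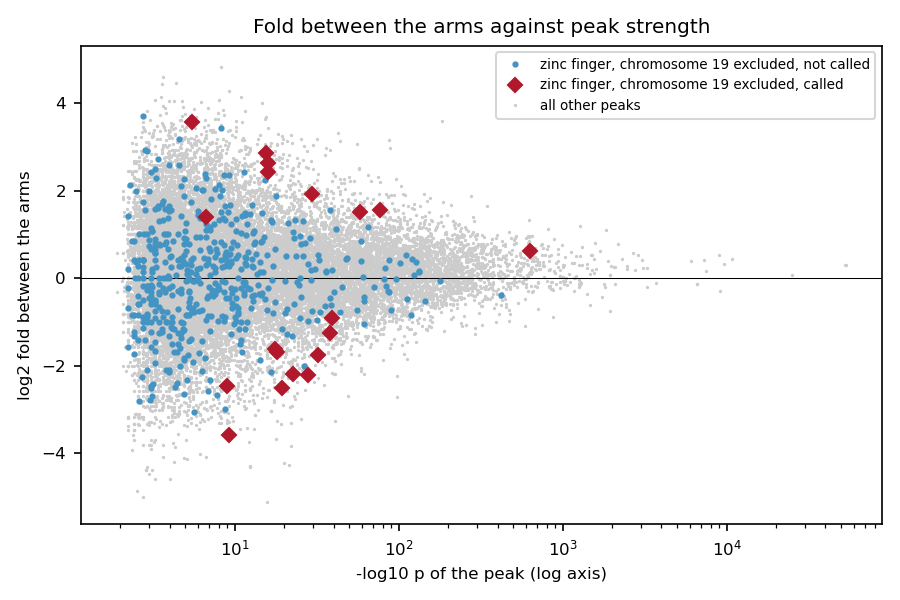
Deposited log2 fold between the arms (y axis) against -log10 p of the peak (x axis, log scale) for uncalled members (blue points), called members (red diamonds) and all other peaks (grey points, those with a listed p of 0 left out). Called members lie between log2 folds of -3.58 and 3.58, and none has a log10 peak p above -5.

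ZNF593, ZNF622 and ZNF638, which had 1 called peak each, encode proteins that act on ribosomes, RNA or viral DNA, and how many members do so was not counted. ZNF593 and ZNF622 are counterparts of yeast factors that mature the large ribosomal subunit. ZNF593 had 1 peak in the authors' deposited table, at 26170522 to 26170873 on chromosome 1, with an enrichment of 11.7-fold and a log2 fold of 0.62 (FDR 0.0023). An antisense gene, ZNF593OS, is listed at the same place with a log2 fold of 0.64 in the authors' deposited table, so the 2 genes cannot be told apart. The called ZNF622 peak, at 16451549 to 16453016 on chromosome 5, had 2 exon blocks, an enrichment of 5.63-fold and a log2 fold of 2.86 (FDR 0.0028) per the authors' deposited table. Its middle lay 150 bases from the annotated 3′ end, at the other end of the gene from the start peak shown above. ZNF638, an RNA-binding nuclear protein that helps the HUSH complex silence unintegrated retroviral DNA, had 4 peaks with log2 folds of -0.30, 2.03, -2.22 and -1.16 along the gene per the authors' deposited table. The called one, at -2.22 (FDR 0.0066), lies at 71422880 to 71423930 on chromosome 2 and was the third most enriched peak of all members. ZNF598, a ubiquitin ligase that senses collided ribosomes, had peaks at 0.79 and -2.68 in the authors' deposited table, neither called (FDR 0.34 and 0.33). The 3 peaks of ZNF207, at 0.53, 0.60 and -0.38 in the authors' deposited table, were not called either.

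ZNF768, ZNF217 and ZNF395, each with 1 called peak, have been studied in tumour cells. ZNF768, a factor linked to RAS signalling that binds repeat-derived DNA elements, had the smallest FDR of all members. In the authors' deposited table its called peak, at 30524903 to 30525113 on chromosome 16, had a log2 fold of -1.62 (FDR 2.14e-09) at an enrichment of 2.35-fold. The ZNF768 peaks on either side were far more enriched, at 30.5-fold and 8.66-fold, with log2 folds of -0.51 and 0.17 (FDR 0.095 and 0.48) in the authors' deposited table. The called peak was therefore the weakest of the gene, with a log10 peak p of -17.6 against -144 and -133. ZNF217, an amplified oncogene of breast tumours that works with the CoREST demethylase complex and whose mouse counterpart has been reported to bind METTL3, had 4 peaks with log2 folds of 0.41, -2.42, 1.0 and 1.55 per the authors' deposited table. Its called peak, at 1.55 (FDR 0.0063), lies at 53582288 to 53583157 on chromosome 20 with an enrichment of 20.5-fold. ZNF395, a hypoxia-responsive factor, had 2 peaks at 2.29 and 1.93 in the authors' deposited table, of which the second (FDR 0.046) was called. The same place, with bounds differing at 1 end, is listed under FBXO16 with a log2 fold of 1.76 and an FDR of 0.066 in the authors' deposited table, which was not called, so this call hangs on which gene the peak was given to.

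ZNF292, a large zinc finger protein whose gene is mutated in several tumour types and in an intellectual disability syndrome, had called peaks of opposite sign. In the authors' deposited table, a short peak at 87215918 to 87216369 on chromosome 6, crossing a junction, stood at a log2 fold of 1.39 (FDR 0.035) with an enrichment of 2.39-fold. The other 9 peaks lay far downstream of it, in a stretch of 6952 bases. Each was on 1 exon block, and 7 of them had negative folds. The last of these, at 87260700 to 87261719, stood at -2.45 (FDR 0.032) with 20.8-fold enrichment in the authors' deposited table. Between the called peaks lay 44330 bases of the chromosome. The peak between them with the largest fold, at 3.17 with an FDR of 0.13 in the authors' deposited table, was not called. Neither ZNF292 call passed with p doubled (FDR 0.069 and 0.064).

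The called genes ZNF263, ZNF174, ZNF445, ZNF18 and ZNF232 are set side by side because all encode SCAN proteins, and members with that domain were not counted. ZNF263, a SCAN and KRAB repressor that binds many promoters, had 2 peaks only 119 bases apart, both called and of opposite sign. In the authors' deposited table the upstream ZNF263 peak (3289418 to 3289897, chromosome 16) stood at 1.51 (FDR 0.028) and the downstream one (3290017 to 3291363) at -1.24 (FDR 0.013). Both were strong, with log10 peak p of -58.3 and -37.9. With p doubled, the downstream ZNF263 peak passed (FDR 0.027) and the upstream one did not (FDR 0.056). ZNF174, a SCAN repressor in the same chromosome 16 cluster, stood at 2.43 (FDR 0.012) for its 5′ peak and at -0.73 (FDR 0.54) for its 3′ peak in the authors' deposited table. ZNF445, which with ZFP57 protects imprinted methylation, had 6 peaks, of which the called one stood at 2.64 (FDR 0.027) and the others between -0.94 and 1.16 in the authors' deposited table. ZNF18 had 2 peaks in the authors' deposited table, a strong one near the 3′ end at -0.04 (FDR 0.67) and a weaker one at -3.58 (FDR 0.046). ZNF232 likewise had an uncalled 3′ peak, at 1.33 (FDR 0.33), and a called one, at -2.50 (FDR 0.048), in the authors' deposited table. In 4 of these 5 genes a called peak stood beside a peak of the other sign, called in ZNF263 alone. In ZNF18 the other peak had the same sign and a fold near 0. Folds of both signs were common among members, in 99 (68.3%) of the 145 genes with several peaks.

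The other called genes were ZNF777, ZNF195, ZNF408, ZNF646 and ZNF32. ZNF777, a KRAB gene with 1 peak of 2 exon blocks, stood at -1.75 (FDR 0.0060) with an enrichment of 10.2-fold in the authors' deposited table. ZNF195, a KRAB gene on chromosome 11, had 3 peaks that were all negative in the authors' deposited table, at -1.43, -1.68 and -0.82, and the middle one was called (FDR 0.043). ZNF408, mutated in a hereditary disease of retinal vessels, had peaks at -1.02, 0.61 and -2.18 in the authors' deposited table. The last one, 164 bases from the annotated 3′ end and enriched 51.2-fold, was called (FDR 0.026). ZNF646 had 7 peaks in the authors' deposited table, of which the one at -0.92 (FDR 0.028) was called and the other 6 ranged from -0.91 to 0.86. ZNF32 had the largest positive called fold, 3.58 (FDR 0.023), on its only peak, which was the weakest of all called members with a log10 peak p of -5.47 in the authors' deposited table.

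**Figure D3:**
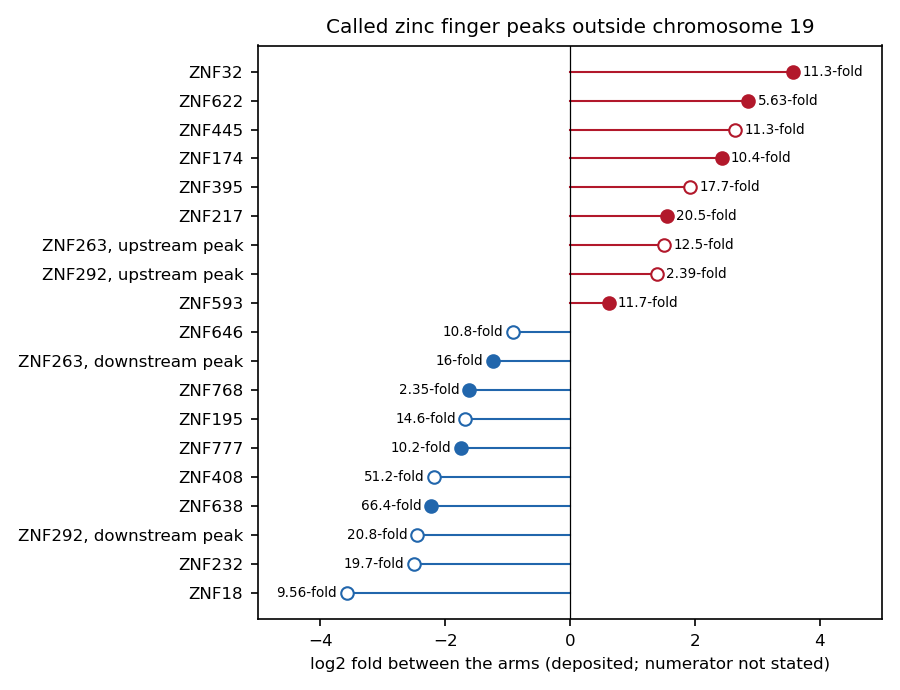
Deposited log2 fold between the arms (x axis, numerator not stated) of the 19 called member peaks (rows), with the enrichment of each peak printed beside it. Filled points passed an FDR of 0.05 with p doubled and open points did not, and 9 are filled, from ZNF32 at 3.58 to ZNF638 at -2.22.

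At the threshold, ZNF395 (FDR 0.046) and ZNF232 (FDR 0.048) stood just inside. ZNF354A and ZNF503 stood just outside. ZNF354A, a KRAB gene, had a peak at 3.43 (FDR 0.052) and a 3′ peak at -2.46 (FDR 0.14) per the authors' deposited table. ZNF503, a developmental repressor of the NET family, had a strong peak at -0.73 (FDR 0.058) per the authors' deposited table. Other large folds on peaks with a log10 p of -5 or lower did not come near the threshold. In the authors' deposited table these were 2.42 for ZNF436, 2.39 for ZNF697, 2.36 for ZNF668 and 2.35 for ZNF830 on the positive side, with FDRs from 0.19 to 0.43. On the negative side ZNF691 stood at -3.05, ZNF629 at -2.99, ZNF41 at -2.66 and ZNF12 at -2.58 in the authors' deposited table, with FDRs from 0.23 to 0.35.

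Most member genes with several peaks had folds of both signs. Of 145 member genes with several peaks, 99 (68.3%) had folds of both signs, against 59.6% of 5812 such genes in the whole table. A gene with more peaks can more easily show both signs, and these shares were not matched for peak number. Member genes had 2.62 peaks each on average, and all genes with a peak 1.88. Across 321 pairs of neighbouring peaks of 1 member gene, the log2 folds had a Pearson r of 0.02 and a Spearman rho of 0.04, and 158 of 309 pairs without a fold of 0 (51.1%) had the same sign. Across 10423 such pairs of all genes, r was 0.05 and rho 0.05, with 53.1% of the same sign. These are descriptions across sites that share a transcript and the same libraries, and correlations this weak are no finding. Where both peaks had a log10 peak p of -5 or lower, r was 0.013 and rho 0.08 over 130 member pairs. The 17 genes with a called peak held another 36 peaks that were not called.

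**Figure D4:**
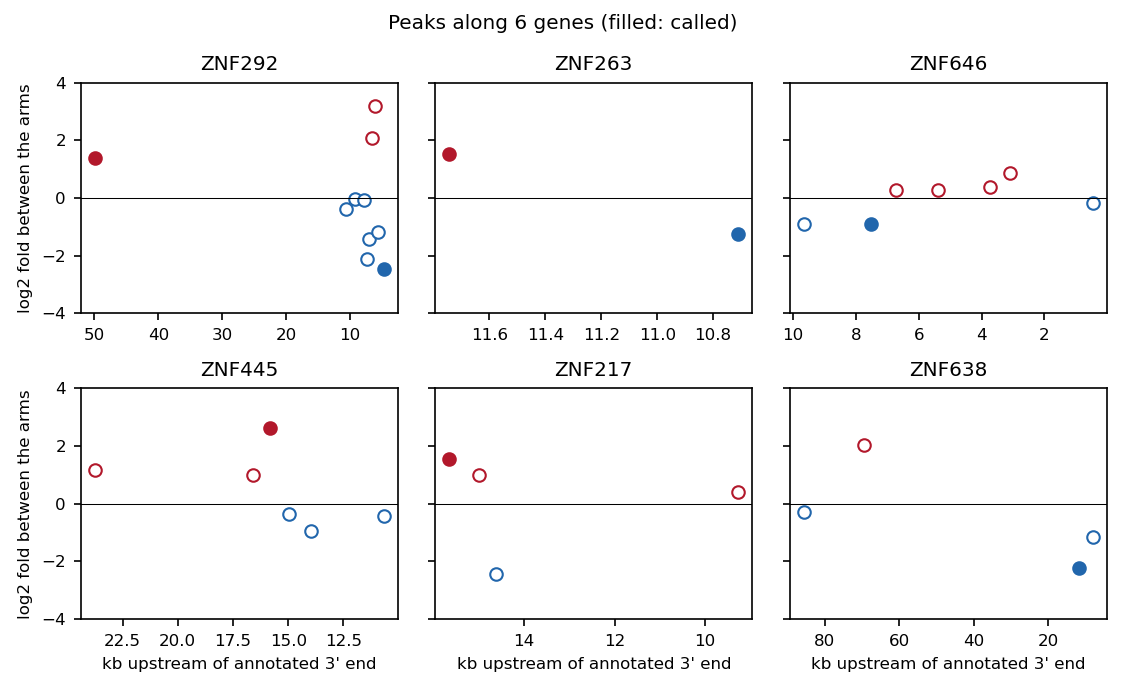
Deposited log2 fold between the arms (y axis) of each peak along 6 genes, by distance of the peak's middle from the annotated 3′ end (x axis, kb, the gene's 5′ side at the left, introns included). Filled points were called, and in ZNF263 and ZNF292 filled points stand on both sides of 0.

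Zinc finger genes tend to lie in tandem clusters that arose by duplication. Of the 203 genes here, 49 fell into 7 clusters of at least 5 members with gaps of at most 500000 bases. By the same distance 102 genes lay alone, and the rest lay in 21 groups of 2 to 4 genes. The 7 clusters held 114 peaks, of which 7 were called (6.14%), and 12 of the other 417 were (2.88%), where 8.23% of all peaks were. No test of clustered against other members was made. The largest cluster, with 10 genes from ZNF48 to ZNF646 (30378312 to 31084196 on chromosome 16), had 26 peaks with a median log2 fold of 0.34 in the authors' deposited table. Of these 16 were positive and 10 negative, and the 2 called ones, on ZNF768 and ZNF646, were both negative. Within it the folds reached 2.58 on ZNF747 (FDR 0.37) and -2.99 on ZNF629 (FDR 0.23) per the authors' deposited table. The ZNF747 peak was weak (log10 peak p -4.55), lay outside the RefSeq gene and overlapped a peak of an unnamed gene. ZNF48 had 2 positive peaks, at 0.41 and 1.48, and ZNF668 had 3, at 1.09, 1.27 and 2.36, in the authors' deposited table, none called. ZNF689 stood at 1.80 (FDR 0.24) and ZNF771 at 0.74 (FDR 0.66) per the authors' deposited table. ZNF688 and ZNF764 had 1 weak peak each, at -0.74 and -1.14 in the authors' deposited table.

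The other chromosome 16 cluster, from ZNF205 to ZNF597, had 3 of 13 peaks called, the ZNF263 pair and ZNF174, with a median log2 fold of 0.22 in the authors' deposited table. The chromosome 7 cluster from ZNF786 to ZNF862 had 22 peaks on 9 genes, 6 positive and 16 negative. Its median of -0.41 in the authors' deposited table was the lowest of the 7 clusters. Over all peaks 12523 folds were positive and 9841 negative, and the signs of this cluster were not tested. Only its ZNF777 peak was called. In the authors' deposited table, all 3 peaks of ZNF212, all 3 of ZNF398, all 3 of ZNF862 and both of ZNF746 were negative there, while both of ZNF282 were positive. The chromosome 3 cluster from ZNF445 to ZNF502 had 1 of 19 peaks called. The clusters on chromosome 8 (17 peaks), chromosome 7 from ZNF680 to ZNF92 (10 peaks) and chromosome 1 (7 peaks) had 0 calls. Of their 34 peaks 4 passed the authors' unadjusted p of 0.05, where 19.9% of all peaks did. By the deposited FDR 8.23% of all peaks were called, and no single cluster was tested against that share. Clustered zinc finger genes are paralogs, and how reads that match more than 1 of them were assigned was not given in the sources used here.

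**Figure D5:**
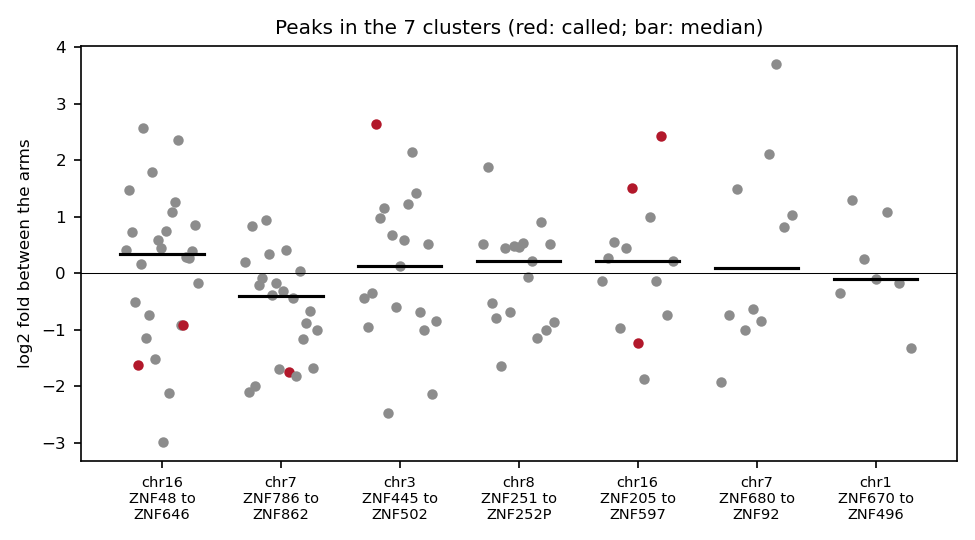
Deposited log2 fold between the arms (y axis) of every peak in the 7 clusters of at least 5 member genes (x axis, peaks of a cluster spread sideways in genome order). Red points were called, bars are medians from -0.41 to 0.34, and every cluster has peaks on both sides of 0.

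Genes of the TRIM28 pathway, through which KRAB zinc fingers silence chromatin, had peaks in 22 of 25 listed members. Of their 58 peaks 1 was called, where 8.23% of all peaks were, and the median log2 fold was 0.42. That peak was on HDAC2, a histone deacetylase, at 2.18 (FDR 0.016) with an enrichment of 1.83-fold and a log10 peak p of -2.76 in the authors' deposited table. The methyltransferase SETDB1 had 3 peaks at 0.41, 0.07 and 0.36 in the authors' deposited table, the last of them enriched 45.0-fold. TASOR, a subunit of the HUSH complex, had 6 peaks from -1.40 to 1.15 in the authors' deposited table, and MPHOSPH8, another subunit, had 1 at -0.69. The list's other genes, TRIM28, CBX3 and DNMT3B, had no peak among those analysed here, which says nothing of their transcript level.

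Among families with a related symbol, ZFP genes had 5 of 28 peaks called (2 positive, 3 negative), on 2 genes, where 8.23% of all peaks were called. ZBTB genes had 3 of 103 called, all positive, and ZC3H genes 4 of 52 (7.69%, near the share of all peaks), with 2 of either sign. ZSCAN and ZKSCAN genes had 0 of 40 and 0 of 22 peaks called by the authors' FDR, and 4 and 1 at their unadjusted p of 0.05, where 56 of 531 member peaks and 19.9% of all peaks passed. The exact binomial 95% intervals for those counts of 0 by FDR reach 8.81% for ZSCAN and 15.4% for ZKSCAN, so both contain the share of all peaks. Median enrichment in the authors' deposited table was 16.6-fold for ZSCAN, 16.1-fold for ZKSCAN, 15.2-fold for ZBTB, 11.8-fold for ZC3H and 10.9-fold for ZFP peaks.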

How the data were processed

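The series holds 8 libraries of HCT116 cells, IP and input of the shALKBH5 and shNC arms, grouped by sample title. HOMER 4.9.1, BWA 0.7.12 and GRCh38 appear in the submitters' processing notes without a role, and a peak caller was not given in the sources used here. What was deposited is 1 peak list for the whole series. Per the file headers, it gives each peak's p-value and a score that is its log10, an enrichment as a linear ratio (taken to be IP over input), and a log2 fold between the arms with log10 p and FDR scores. Libraries were not analysed singly, so no replicate test was possible, and the use of replicate spread in the authors' p was not given in the sources used here.

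Starts were written 1-based. All 203 genes matched the RefSeq gene table of GRCh38.p14 by symbol, and 160 had a promoter window. Peaks were placed by their middle exonic base. A peak overlapped another when exon blocks shared a base on either strand. The deposited p never exceeded 0.773 and had a median of 0.565 at log2 folds within 0.05 of 0, so it was also doubled and adjusted again by the Benjamini-Hochberg method. That adjustment was tested on simulated data. The planned fit per library, with or without a replicate block, was not run. Members and gene lists were chosen with earlier results of these data known. Genes named are the called members, those with the most peaks, highest enrichment, strongest p, largest uncalled folds or FDRs next to the threshold, the largest cluster and called genes of the fixed lists. Other genes named, and the CCGGAAG motif, were chosen after their values were seen. Python 3.11.15, pandas 2.3.3 and scipy 1.17.1 were used.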

Additional observations from a re-analysis of the deposited data

How the results depend on the processing

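No paired analysis was possible because values per library were not analysed here, and leaving out replicates was not run for the same reason. The 19 called member peaks (9 positive, 10 negative) numbered 6 at an FDR of 0.01 (3 and 3), 56 at the authors' unadjusted p of 0.05 (28 and 28), and 9 with p doubled (5 and 4). Those with p doubled were ZNF768, ZNF593, ZNF622, ZNF777, ZNF217, ZNF638, ZNF174, ZNF32 and the downstream ZNF263 peak. Of all peaks, 8.23% were called at an FDR of 0.05 and 4.99% at 0.01. At the unadjusted p of 0.05 the share of all peaks was 19.9%, and with p doubled it was 6.36%. Leaving out peaks that overlap another gene's peak left 17 calls, without ZNF593 and ZNF395. Requiring a log10 peak p of -5 or lower, an enrichment of at least 2-fold, or that the sign hold after the median fold of all peaks is subtracted each left 19. The median log2 fold of 0.0 was 0.11 at a log10 peak p of -5 or lower and 0.08 with 1 peak per gene. The median enrichment of 13.5-fold was 18.4-fold at a log10 peak p of -5 or lower and 16.9-fold with 1 peak per gene. The share near the 3′ end, 14.97% within 1000 bases, was 6.53% within 500 and 30.1% within 2000, and 13.9% without overlapping peaks. The share of peaks spanning a junction, 17.5%, was 11.4% among peaks of at most 400 bases and 23.3% at a log10 peak p of -5 or lower. Read depth was not given, so what it limits could not be measured.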

Other observations

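Members labelled as pseudogenes also carried m6A peaks. By the table's gene descriptions 7 of the 203 genes are pseudogenes, with 17 peaks, of which 0 were called by the authors' FDR and 1 passed their unadjusted p of 0.05. With 8.23% of all peaks called and 19.9% past that unadjusted p, counts of 0 and 1 in so few say nothing of pseudogenes. ZNF252P, on chromosome 8, had 6 peaks with log2 folds from -1.14 to 0.91 in the authors' deposited table, as many as ZNF445 or ZNF609. ZNF609, which encodes a partner of the cohesin loader, had log2 folds from -0.42 to 0.92 and up to 42.8-fold enrichment in the authors' deposited table, and none of its 6 peaks was called.

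Among weak peaks the same deposited values recur. In the authors' deposited table, 227 peaks share a log10 peak p of -2.76 with an enrichment of 10.7-fold, 12 of them on member genes, while their log2 folds run from -3.81 to 3.70. Another 220 peaks, 12 of them members, share -3.10 with 11.8-fold. A log2 fold of exactly -1, 0, 0.415 or 1, the most frequent among weak members and picked after they were seen to recur, was listed for 30 of 201 member peaks (14.9%) with a log10 peak p above -5, for 6 of 245 between -5 and -20, and for 0 of 85 at -20 or lower. The shares among all peaks were 7.58%, 1.57% and 0.32% in the same classes. The largest positive member fold in the table, 3.70 on ZNF273, belongs to a peak of this kind (log10 peak p -2.76, enrichment 10.7-fold, FDR 0.54 in the authors' deposited table). The counts of reads behind these peaks were not analysed here.

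The promoter letters CCGGAAG, present in 41.2% of the members with a RefSeq window, were also present in 56 of 120 zinc finger genes on chromosome 19 (46.7%), again with 1 window per gene. Over all windows the counts were 75 of 223 (33.6%) for members and 63 of 141 (44.7%) on chromosome 19. All these windows are 300 bases long, and the median member window had 63.0% G and C, against 58.7% over all windows. The parts of base composition and of having a peak in the motif share were not tested.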
